A study of Homo sapiens with 12 samples.

Results

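The NRF2 antioxidant genes described here are HMOX1, NQO1, GCLM, GCLC, SRXN1, TXNRD1, SLC7A11, OSGIN1 and NFE2L2, 9 genes of the 58735 in the deposited tables. They were chosen by name as genes known to respond to cysteine-reactive compounds, and HMOX1 was chosen because it had been seen to be lower in treated libraries of these same data. All 9 passed the low-count filter that 17729 genes passed.

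NRF2, the transcription factor encoded by NFE2L2, is held in the cytoplasm by KEAP1, which presents it to a CUL3 ubiquitin ligase for degradation. When cysteines of KEAP1 are modified by an electrophile, NRF2 escapes, enters the nucleus, pairs with a small MAF protein and activates genes through the antioxidant response element. HMOX1 has a second regulator in BACH1, a heme-sensing repressor that occupies the same elements.

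RNA was sequenced from wild-type HEK293T cells, a line from human embryonic kidney, under 4 treatments with 3 libraries each: DMSO vehicle, CEP, 4SU, and CEP together with 4SU (CEP+4SU). CEP is the clickable electrophilic purine AHL-Pu-1, a probe that reacts with protein cysteines, given to cells at 25 µM for 1 h in medium without serum. The dose is the one in the series' design text, whereas the treatment text of the labels gives the same figure in mM. 4SU is 4-thiouridine, a photoreactive uridine analog that is built into new RNA, given at 100 µM for 16 h. One protocol with irradiation at 312 nm and 1 J/cm2 stands on every label, and whether the libraries without 4SU were irradiated is not stated separately. All groups share 1 cell line. The study describes its replicates as biologically independent experiments, whereas the labels tie no replicate number to a culture or a day, so p-values measure the spread between these libraries.

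Libraries held 16569114 to 24644734 counts on genes. CEP replicate 2 and CEP+4SU replicate 2 stood apart, with 22230 and 22627 genes with at least 1 count against 24376 to 25869 in the other 10 libraries. Of 7 markers of HEK293 cells, 6 were at 1 FPKM or more in every library, and PAX2 ranged from 0.832 to 1.46 FPKM. Of 17 markers of macrophages, hepatocytes, fibroblasts, endothelium and proximal tubule, 15 stayed under 1 FPKM in every library, the exceptions being COL1A1 at 2.89 to 4.22 FPKM and LRP2 at 1.78 to 2.14 FPKM. The summed level of the 3 fibroblast markers was 5.03 to 5.22 FPKM in DMSO, 4.12 to 4.5 with CEP, 3.81 to 5.27 with 4SU and 3.57 to 4.31 with both, and its part in the values below was not tested.

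The antioxidant response element is the sequence through which NRF2 acts. Its core letters were searched for in the promoters of these genes, and the stretches with a match are shown here. RefSeq promoter windows of GRCh38.p14, 300 bases long with 250 before the transcription start, were found for 7 of the 9 genes, as 9 windows. No window was found for HMOX1 or SLC7A11. The core TGACNNNGC, searched on both strands, occurred in 3 of the 9 windows, which belong to GCLM and TXNRD1, and in 4687 of all 35116 windows (13.35%). Capitals mark the core in the 121 bases that end at the start site, 5′ to 3′ on the gene's strand.
GCLM, chr1:93909430-93909550, minus strand: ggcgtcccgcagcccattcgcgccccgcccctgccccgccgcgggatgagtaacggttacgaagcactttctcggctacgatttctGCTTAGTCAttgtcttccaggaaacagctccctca
TXNRD1, upstream start, chr12:104215659-104215779, plus strand: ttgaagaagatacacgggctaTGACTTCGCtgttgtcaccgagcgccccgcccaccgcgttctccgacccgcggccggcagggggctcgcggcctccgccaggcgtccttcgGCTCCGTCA
TXNRD1, downstream start, chr12:104286912-104287032, plus strand: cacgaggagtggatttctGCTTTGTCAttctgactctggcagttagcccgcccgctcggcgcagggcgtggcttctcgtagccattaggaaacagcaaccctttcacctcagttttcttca
The match in GCLM begins at position -34 from the start and lies on the opposite strand. The upstream TXNRD1 window holds a match on the gene's own strand at -99 and one on the opposite strand at -8, and the downstream window holds one on the opposite strand at -102. The related AP-1 letters TGANTCA, which can share bases with the core, occurred in 1 of the 9 windows, that of OSGIN1 at -97, and in 7.709% of all windows. These matches are letters in a window, and binding was not measured here. An element more than 250 bases before the start lies outside the window. A window without a match therefore does not show that its gene lacks the element.

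Vehicle-treated cells expressed the 9 genes over a wide range. Per length, TXNRD1 (thioredoxin reductase, chromosome 12) had the highest DMSO level at 41.0 ± 2.16 FPKM (SD, n = 3), followed by HMOX1 at 37.7 ± 0.862 FPKM, and their libraries did not overlap although the means were 1.09-fold apart. GCLM stood at 14.5 ± 1.44 FPKM, NFE2L2 at 7.84 ± 0.345, GCLC at 6.36 ± 0.270, SLC7A11 at 4.17 ± 0.345, NQO1 at 3.82 ± 0.723, SRXN1 at 2.25 ± 0.332 and OSGIN1 at 0.418 ± 0.0928. SLC7A11 and NQO1 were the only neighbours in this order whose DMSO libraries overlapped. The order of means was the same with CEP, and with 4SU and with CEP+4SU NQO1 preceded SLC7A11. Among all tested genes, the DMSO level of HMOX1 was at percentile 92.9 and that of OSGIN1 at percentile 14.8.

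HMOX1 (ENSG00000100292, chromosome 22, 35380361 to 35394214, plus strand, GRCh38) encodes heme oxygenase 1, which opens heme into biliverdin, iron and carbon monoxide. In the DMSO libraries it was at 93.6, 90.8 and 90.2 CPM (read counts scaled to a common library size, with TMM factors), and with CEP at 86.0, 71.0 and 85 CPM. With 4SU it was at 78.0, 62.0 and 65.9 CPM, and with CEP+4SU at 63.5, 51.2 and 56.7 CPM. Every treated library lay below every DMSO library, and the CEP+4SU libraries also lay below every CEP library, whereas the 4SU libraries overlapped both the CEP and the CEP+4SU libraries. Separation of a single treated group from DMSO was found for 17.9% to 28.7% of all tested genes, by comparison. The share for all treated libraries against DMSO at once and the share between CEP+4SU and CEP were not counted. Both separations are descriptions, since HMOX1 was chosen for being lower in treated libraries. The DMSO values spanned a narrow range, with an SD of 1.84 CPM against 8.40 with CEP, 8.35 with 4SU and 6.14 with CEP+4SU. In bulk RNA a smaller share of expressing cells and less RNA per cell cannot be told apart.

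**Figure D1:**
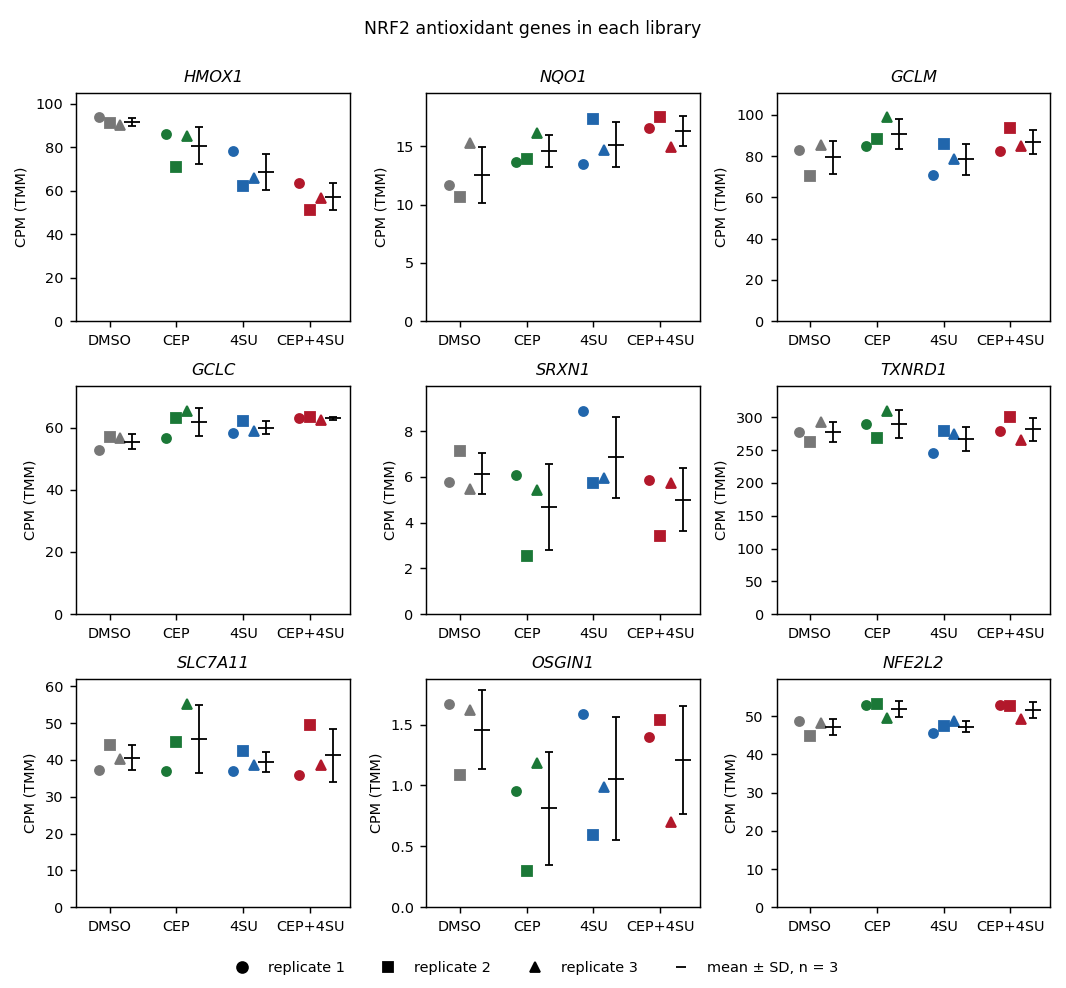
CPM (TMM library sizes, linear axis from 0) of the 9 genes in each of the 12 libraries, by group, with marker shape for the replicate number and the mean ± SD of 3 libraries in black. HMOX1 steps from 91.5 ± 1.84 CPM in DMSO to 57.1 ± 6.14 CPM with CEP+4SU, while TXNRD1 and SLC7A11 overlap between all groups.

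Read as a response to the electrophile alone, the change of HMOX1 was small. The values known to have led to its choice were those of the comparisons with CEP, so these are given as a description without a test. The log2 fold change was -0.18 (SE 0.10, 95% confidence interval -0.39 to 0.03) with CEP against DMSO, -0.68 (SE 0.10, -0.90 to -0.47) with CEP+4SU against DMSO, and -0.27 (SE 0.10, -0.48 to -0.05) with CEP+4SU against 4SU. Averaged over the presence of 4SU, CEP went with a log2 difference of -0.22 (SE 0.07). In percent, HMOX1 differed from DMSO by -11.8% with CEP alone and by -37.6% with both compounds, in comparisons that share the DMSO libraries. Without CEP replicate 2 and CEP+4SU replicate 2 the log2 fold change was -0.10 with CEP and -0.61 with CEP+4SU.

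4SU was compared with DMSO to ask what the nucleoside did without the electrophile. HMOX1 differed from DMSO by -25.0%, a log2 fold change of -0.42 (SE 0.10, 95% confidence interval -0.63 to -0.20), with an adjusted p of 0.521 by edgeR's quasi-likelihood test. The DMSO libraries of this comparison also entered the one on which HMOX1 was chosen. The 4SU libraries may have had a part in the choice as well, so the p-values here are a description and no support. With DESeq2 the adjusted p was 0.0423, and without CEP replicate 2 and CEP+4SU replicate 2, which are in neither group, it was 0.0340, within a range of 0.0118 to 0.999 over 20 alternatives. The point estimate was larger with 4SU alone than with CEP alone, and the direct difference of the 2 groups, a comparison added after the data had been seen, was -0.23 (SE 0.10), given without a test since the CEP libraries had a part in the choice of HMOX1.

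Whether CEP acted on HMOX1 differently in the presence of 4SU was asked with the interaction term, whose libraries also had a part in the choice of the gene. It was -0.08 on the log2 scale (SE 0.14, 95% confidence interval -0.39 to 0.22, adjusted p = 1.00 by edgeR), so that a difference of either sign within that interval was not resolved with 3 libraries a group. Adding 4SU to CEP, also compared after the data had been seen, gave -0.50 (SE 0.10). This too is a description, since HMOX1 had been seen to be lower in these libraries, and in that comparison 1 gene of 17729 passed edgeR's threshold (0.00564%), which was not HMOX1.

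Base composition moved with these values. The HMOX1 transcript has 58.07% G and C, against a median of 48.5% over the tested genes (longest transcript of each gene in GENCODE 29), and the genes past the threshold with CEP+4SU had medians of 59.4% where lower and 39.8% where higher. When the trend of each library on GC content was removed, a step that also takes out any real change that follows GC content, the log2 fold change of HMOX1 was -0.01 with CEP alone, -0.35 with 4SU alone (adjusted p = 0.0647 by edgeR) and -0.52 with CEP+4SU against DMSO. The difference between 4SU and CEP was then -0.34 and that between CEP+4SU and CEP -0.50. After this step the difference of HMOX1 from DMSO was near 0 with CEP alone and was still negative in both groups with 4SU.

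In the groups with CEP, the signs of the 9 genes against DMSO went with GC content. The transcripts of HMOX1, SRXN1 (53.56%) and OSGIN1 (63.45%) are above the median GC content, and those of the other 6, from 35.4% for SLC7A11 to 46.02% for NQO1, are below it. With CEP against DMSO, 3 of the 3 GC-rich members had negative log2 fold changes, -0.82 to -0.18, and 6 of the 6 others had positive ones, 0.06 to 0.22. With CEP+4SU the same 3 were at -0.68 to -0.27 and the same 6 at 0.02 to 0.38. With 4SU alone the split was not seen, since SRXN1 was at 0.17 and 4 of the 6 others were below 0. With CEP+4SU against 4SU it was incomplete, since OSGIN1 was at 0.19. SRXN1 with CEP was at -0.09 without CEP replicate 2 and CEP+4SU replicate 2, and OSGIN1 had 5 counts in CEP replicate 2. How many of all genes on each side of the median had these signs was not counted. The split is therefore only a description of these 9 genes. None of them had an unadjusted p under 0.05 with CEP against DMSO by edgeR. After removal of the GC trend, 3 of 9 members were above 0 with CEP, among them NQO1 at 0.16 as the highest.

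**Figure D2:**
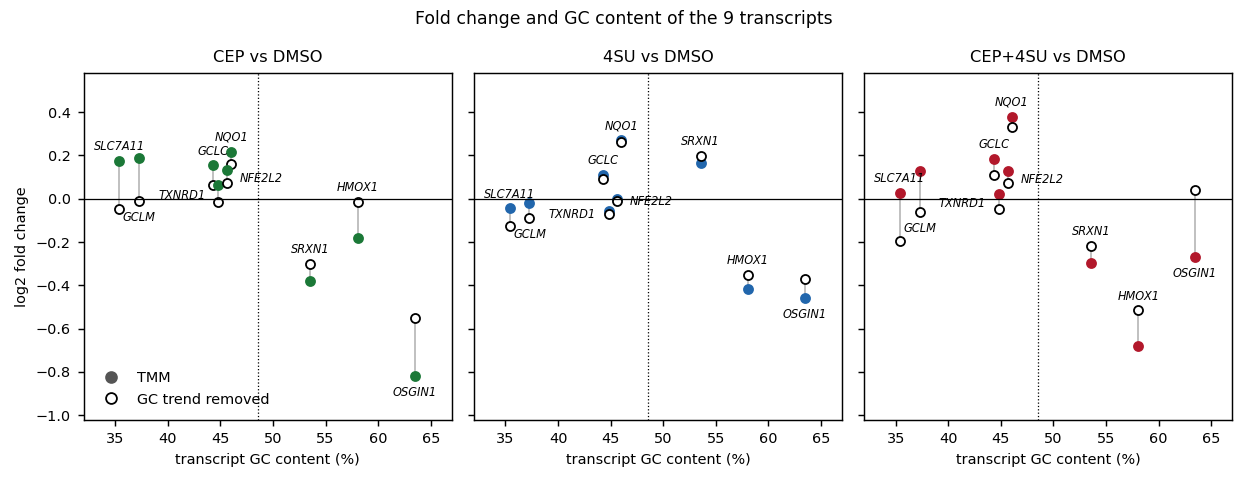
Log2 fold change against DMSO (linear axis) of the 9 genes over the GC content of each gene's longest transcript in GENCODE 29, in percent, with filled points for TMM normalization and open points after removal of each library's GC trend. The dotted line is the median of the tested genes, 48.5%; with CEP, HMOX1 moves from -0.18 to -0.01 and GCLM from 0.19 to -0.01, whereas HMOX1 with CEP+4SU moves from -0.68 to -0.52.

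Counted over the set, 0 of 9 members passed an adjusted p of 0.05 with CEP against DMSO by edgeR, where 0.0564% of all tested genes did. None had an unadjusted p under 0.05, which 18.6% of all genes had, and 0 passed with DESeq2, where 2.63% of the genes it tested did. Genes it tested are those to which DESeq2 gave an adjusted p, and genes without one count as not passing. SRXN1 and OSGIN1 lacked one with CEP against DMSO and with CEP averaged over 4SU. With 4SU against DMSO, NQO1, SRXN1, SLC7A11, OSGIN1 and NFE2L2 lacked one. With CEP+4SU against DMSO, 1 of 9 passed, HMOX1, where 1.64% of all genes did. With CEP+4SU against 4SU 0 of 9 passed (0.0451% of all genes), and with CEP averaged over 4SU 0 of 9 passed with edgeR (0.276% of all genes) and 1, HMOX1, with DESeq2, where 15.6% of the genes it tested passed. These counts describe values that had a part in the choice of the genes. For 4SU against DMSO, 0 of 9 passed with edgeR, where 1 of the 17729 genes did (0.00564%), 1 of the 9, HMOX1, had an unadjusted p under 0.05 (6.50% of all genes), and 1 passed with DESeq2 (0.425% of the genes it tested). For 4SU against CEP 0 of 9 passed, where 0.130% of all genes did with edgeR. No member and no other gene passed the interaction test with edgeR (0.00%), although 467 genes (2.63%) had an unadjusted p under 0.05, and DESeq2 also called 0 (0.00%).

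**Figure D3:**
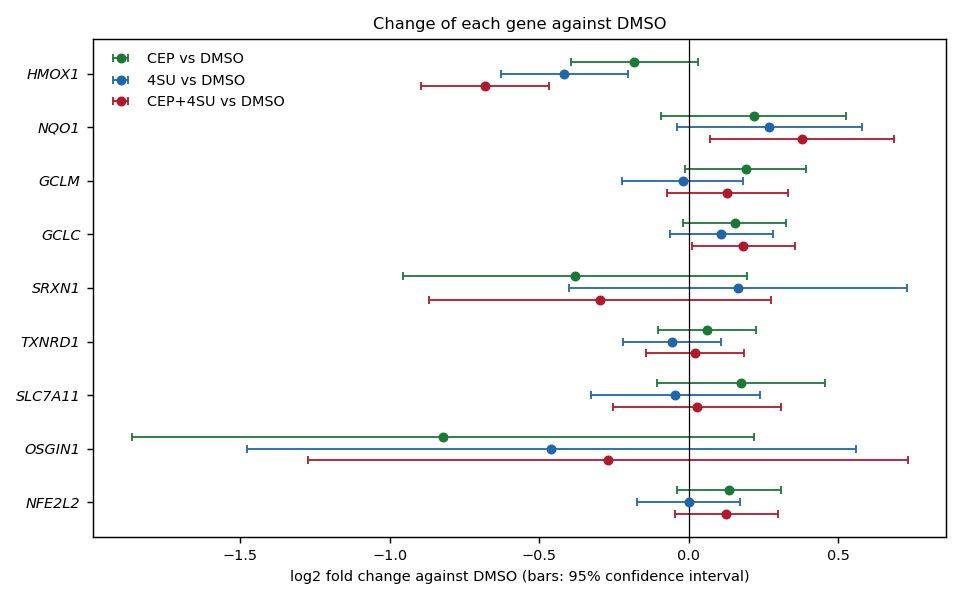
Log2 fold change against DMSO of the 9 genes from the edgeR fit, with bars for the 95% confidence interval of the estimate, for CEP, 4SU and CEP+4SU. HMOX1 lies to the left of 0 in all 3 comparisons, at -0.18, -0.42 and -0.68, and OSGIN1 and SRXN1 have the widest intervals.

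Groups that do not overlap were common in these data. With CEP against DMSO, 2 of 9 members had no overlap, HMOX1 and NFE2L2, where 23.7% of all tested genes had none. With 4SU against DMSO these were HMOX1 and GCLC, 2 of 9 against 17.9% of all genes, and with CEP+4SU against DMSO HMOX1, GCLC and NFE2L2, 3 of 9 against 28.7%. These shares are near the background at this number of genes.

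NFE2L2 (ENSG00000116044, chromosome 2, minus strand) encodes NRF2 itself, whose activity is set mainly through protein stability. Its CPM was 48.8, 44.9 and 48.2 in DMSO, 53.0, 53.3 and 49.6 with CEP, 45.7, 47.5 and 48.7 with 4SU, and 52.9, 52.7 and 49.3 with CEP+4SU. The 6 libraries with CEP all lay above the 6 without it, which held for 1 of the 9 members and for 1.73% of all genes. The size was small, with a log2 fold change of 0.14 (SE 0.08) with CEP against DMSO and 0.13 (SE 0.08) with CEP+4SU against 4SU. After removal of the GC trend it was 0.07 with CEP against DMSO. NFE2L2 overlaps AGPS on the opposite strand, which had 2900 to 4244 counts, and the strand setting of the counting is not stated. For 4SU, 0 of 9 members separated the 6 libraries with it from the 6 without, where 1.35% of all genes did.

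The glutathione genes were at most slightly higher with CEP. GCLC (chromosome 6), the catalytic subunit of glutamate-cysteine ligase, was at 52.7, 57.1 and 56.7 CPM in DMSO, 56.6, 63.2 and 65.5 with CEP, 58.4, 62.3 and 59.0 with 4SU, and 62.9, 63.6 and 62.6 with CEP+4SU. Its DMSO libraries lay below all 4SU and all CEP+4SU libraries, and its log2 fold change was 0.15 (SE 0.08) with CEP, 0.11 (SE 0.08) with 4SU and 0.18 (SE 0.08) with both, which after removal of the GC trend were 0.06, 0.09 and 0.11. GCLM (chromosome 1), the modifier subunit, was at 82.8, 70.3 and 85.1 CPM in DMSO, 84.8, 88.4 and 98.7 with CEP, 70.7, 85.7 and 78.6 with 4SU, and 82.5, 93.5 and 84.8 with CEP+4SU. The groups of GCLM overlapped, with log2 fold changes of 0.19 (SE 0.10) with CEP and 0.13 (SE 0.10) with both, and -0.01 and -0.06 after removal of the GC trend.

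SLC7A11 (chromosome 4), the cystine importer that feeds glutathione synthesis, was at 37.4, 44.0 and 40.3 CPM in DMSO, 37.0, 44.9 and 55.3 with CEP, 37.1, 42.3 and 38.5 with 4SU, and 35.8, 49.4 and 38.7 with CEP+4SU. One CEP library, replicate 3, stood above the rest, and all groups overlapped. Its log2 fold change was 0.17 (SE 0.13) with CEP and 0.03 (SE 0.13) with both, and the one with CEP was 0.012 without CEP replicate 3. After removal of the GC trend the values were -0.05 with CEP and -0.19 with both.

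NQO1 (chromosome 16), a quinone reductase and the most used readout of NRF2, had the largest positive estimate against DMSO with each treatment. It was at 11.7, 10.6 and 15.3 CPM in DMSO, 13.7, 13.9 and 16.2 with CEP, 13.5, 17.3 and 14.7 with 4SU, and 16.5, 17.5 and 15 with CEP+4SU. DMSO replicate 3 overlapped every treated group. The log2 fold change was 0.22 (SE 0.15) with CEP, 0.27 (SE 0.15) with 4SU and 0.38 (SE 0.15, 95% confidence interval 0.07 to 0.69) with both, the last being a 30.1% difference. Unlike HMOX1 it was highest with both compounds, and over the 12 libraries the log2 CPM of the pair had a Pearson r of -0.68, and of -0.29 after the group means were taken out. Such values share the libraries' depth and base composition and are given as a description.

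In the thioredoxin branch, TXNRD1 was at 277, 262 and 293 CPM in DMSO, 290.1, 268 and 310.2 with CEP, 246, 280 and 274 with 4SU, and 280, 299.6 and 265 with CEP+4SU. All groups overlapped, the log2 fold change was 0.06 (SE 0.08) with CEP and 0.02 (SE 0.08) with both, with 95% confidence intervals of -0.10 to 0.23 and -0.14 to 0.19. The pseudogene RPL18AP3 lies within TXNRD1 on the same strand and had 841 to 1800 counts of its own. SRXN1 (chromosome 20), sulfiredoxin, which reactivates over-oxidized peroxiredoxins, was at 5.76, 7.14 and 5.47 CPM in DMSO, 6.07, 2.53 and 5.41 with CEP, 8.90, 5.72 and 5.94 with 4SU, and 5.86, 3.40 and 5.73 with CEP+4SU. The low values were those of CEP replicate 2, with 43 counts, and CEP+4SU replicate 2, the libraries with the fewest detected genes, and the remaining libraries with CEP were at 5.41 CPM or more, next to a lowest DMSO value of 5.47. Its log2 fold change was -0.38 (SE 0.28) with CEP and -0.30 (SE 0.27) with both, and without these 2 libraries -0.09 and -0.08.

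OSGIN1 (chromosome 16), an oxidative stress-induced growth inhibitor, was close to the limit of measurement, with 5 to 39 counts a library. It was at 1.67, 1.08 and 1.62 CPM in DMSO, 0.958, 0.295 and 1.19 with CEP, 1.59, 0.590 and 0.991 with 4SU, and 1.40, 1.53 and 0.703 with CEP+4SU. The lowest value again was that of CEP replicate 2, and all groups overlapped. The log2 fold changes of -0.82 (SE 0.50) with CEP, -0.46 (SE 0.49) with 4SU and -0.27 (SE 0.48) with both cannot be told from 0 at this depth, and the one with CEP was -0.44 without CEP replicate 2 and CEP+4SU replicate 2. The interaction was 1.01 (SE 0.70).

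Among the 36 pairs of members, GCLM and TXNRD1 had the highest Pearson r of log2 CPM over the 12 libraries, 0.83, and 0.82 after the group means were taken out. The lowest was that of SRXN1 and NFE2L2, at -0.69. With the group means taken out, HMOX1 followed SRXN1 at 0.88 and OSGIN1 at 0.67, the other GC-rich transcripts, and NQO1 followed GCLM at 0.84. These points share library depth and composition, and the r values are given without a test.

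The transcripts most like HMOX1 over the 12 libraries, among 11738 genes with a mean of at least 5 CPM, were PLAT (r = 0.970), NDUFAF3 (0.969), APEH (0.964), EEF1A2 (0.954) and COTL1 (0.952). PLAT went from 72.0 ± 1.64 CPM in DMSO to 66.8 with CEP, 58.3 with 4SU and 51.8 ± 4.85 with CEP+4SU. NDUFAF3 went from 124 ± 8.34 CPM to 109, 90.7 and 78.8 ± 12.2 CPM in the same groups. Both therefore shared the order of group means seen for HMOX1, by which they were selected.

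The wider pathway was followed in 63 further genes, of which 57 passed the low-count filter. GPX2, ABCC3, AKR1B10, AKR1C1, AKR1C2 and AKR1C3 did not, so that the AKR1C enzymes, often strong NRF2 targets, were not tested. With CEP against DMSO 0 of 57 passed edgeR's threshold (0.0564% of all genes), with 11 at an unadjusted p under 0.05 (18.6% of all) and 0 with DESeq2 (2.63% of all it tested), and the median log2 fold change was -0.05 against -0.0047 over all genes. With 4SU 0 of 57 passed (0.00564% of all), with 8 at an unadjusted p under 0.05 (6.50% of all) and 0 with DESeq2 (0.425%), and a median of -0.09 against -0.0073. With CEP+4SU 1 of 57, a gene that was lower, passed (1.64% of all). An unadjusted p under 0.05 was reached by 19 (21.4% of all), and 8 passed with DESeq2 (10.6%), 7 lower and 1 higher. With CEP averaged over 4SU 0 of 57 passed with edgeR (0.276% of all), 18 had an unadjusted p under 0.05 (24.3%) and 2 passed with DESeq2 (15.6%). With CEP+4SU against 4SU and in the interaction 0 of 57 passed with edgeR and with DESeq2, where DESeq2 called 0.138% and 0.00% of the genes it tested, with 5 and 0 at an unadjusted p under 0.05 (7.89% and 2.63% of all). None of these counts is read as a result about the pathway.

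Among the genes close to the threshold with CEP+4SU against DMSO, and missing it in the main edgeR fit, were TALDO1, TKT and GPX4. They were picked out after their values had been seen. Genes closer than TKT are left unnamed: the lowest adjusted p was 0.0716 among detoxification genes and 0.0753 among those of heme and iron, by edgeR. TALDO1 and TKT, enzymes of the non-oxidative pentose phosphate pathway, were at -0.36 and -0.30 on the log2 scale, with adjusted p-values of 0.0518 and 0.0873 by edgeR, and GPX4, the lipid peroxide reductase, was at -0.37 with 0.0503. Each of them passed with DESeq2, without the low-count filter, with the replicate block and without CEP+4SU replicate 1. TALDO1 and GPX4 also passed with upper-quartile factors, a filter of 10 counts in every library, robust dispersion or only the libraries compared. Their transcripts, in the order TALDO1, TKT and GPX4, have 56.46%, 55.96% and 62.5% G and C. None of these genes passed after removal of the GC trend. The pathway genes that passed after that step were GSTM3 (45.55% G and C) at -0.37 and ALAS1 (51.89%) at 0.32.

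**Figure D4:**
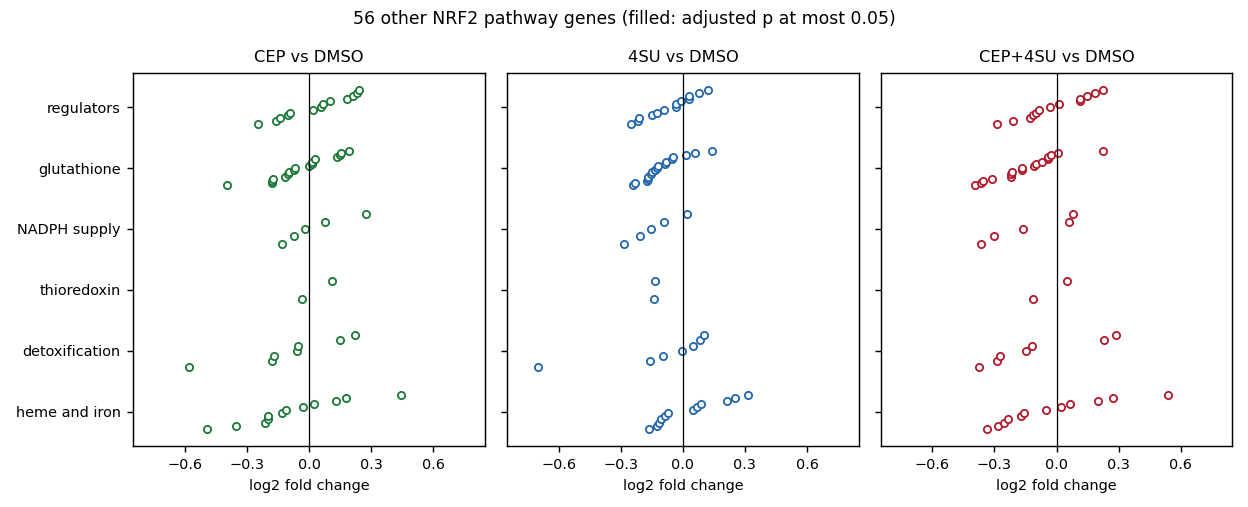
Log2 fold change against DMSO of 56 of the 57 tested NRF2 pathway genes outside the set of 9, by role and comparison, sorted within each role, with open points since none of those drawn passed an adjusted p of 0.05 by edgeR. GPX4 lies at -0.37 and TALDO1 at -0.36 with CEP+4SU.

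Of 13 genes grouped as regulators, which include the NRF2 relatives NFE2L1 and NFE2L3, 0 passed in any of the 6 comparisons by edgeR. Of all tested genes 0.00% to 1.64% passed, by comparison. For CEP averaged over 4SU, KEAP1, the cysteine-rich sensor, had a log2 difference of -0.17 (SE 0.08, adjusted p = 0.200), BACH1, the repressor of HMOX1, 0.19 (SE 0.07, adjusted p = 0.0977), and CUL3, the ligase scaffold, 0.21 (SE 0.06, adjusted p = 0.0731), by edgeR. CUL3 passed with DESeq2, without a low-count filter, with the replicate block, and without CEP replicate 1 or CEP+4SU replicate 1. BACH1 passed with the replicate block and without CEP replicate 1. KEAP1 has 60.3% G and C, BACH1 38.6% and CUL3 37.52%, and after removal of the GC trend the differences were -0.000105, 0.04 and 0.05.

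In the other roles the largest and smallest estimates for CEP averaged over 4SU stayed short of the threshold as well. Among 17 glutathione genes they were those of the exporter ABCC4 (0.12, SE 0.06) and the transferase GSTM2 (-0.31, SE 0.11), whose reads may be shared with near-identical relatives. For NADPH supply the highest was that of ME1, malic enzyme (0.21, SE 0.07). TXN, thioredoxin, was at 0.15 (SE 0.05) and PRDX1, a peroxiredoxin, at -0.01 (SE 0.06). Among 7 detoxification genes UGDH was at 0.18 (SE 0.08) and the carbonyl reductase CBR3 at -0.27 (SE 0.18). Among 12 genes of heme and iron, where HMOX1 itself belongs, ABCB6 was at 0.33 (SE 0.39) and the iron exporter SLC40A1 at -0.33 (SE 0.15). Of these 12, 8 were below 0 and 4 above, with a median of -0.13. After removal of the GC trend ABCC4 was at 0.03, GSTM2 at -0.40, ME1 at 0.07, TXN at 0.05 and UGDH at 0.06.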

How the data were processed

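RNA-seq libraries of HEK293T cells treated with DMSO, CEP, 4SU or CEP+4SU were analysed, 3 per group as the labels assign them. The authors trimmed reads, aligned them to GRCh38 with HISAT2 2.0.5 and counted them on genes with featureCounts 1.5.0-p3, per their methods and processing notes. The gene counts as deposited are raw and whole. FPKM, also deposited by the authors, is on a linear scale, per gene length and an adjusted library size. The authors' table of group means of FPKM was not used.

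The 9 genes, the lists of pathway genes and markers, and the tests were chosen with earlier results of these data known. Counts were fitted with edgeR 4.0.16 (R 4.3.3): filterByExpr with minimum count 10 and minimum total 15, TMM, and 1 quasi-likelihood model over all 12 libraries, with prior count 0.125 for fold changes and Benjamini-Hochberg adjustment over all 17729 tested genes at 0.05. Standard errors come from the fitted model with its quasi-likelihood dispersion, and intervals are 95%. CPM uses TMM library sizes. The procedure was tested on simulated data. FPKM served only to rank levels between genes and for limma 3.58.1 as an alternative. DESeq2 1.42.0 was another alternative. It leaves some genes without an adjusted p, and members and pathway genes without one count as not passing. Contrasts of 4SU and of CEP+4SU with CEP were added after the data had been seen.

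Named by rule beyond the 9 were KEAP1, BACH1 and pathway genes past the threshold. So were the highest and lowest estimate for CEP averaged over 4SU in each role (mean CPM of 1 or more). The 5 genes with the highest Pearson r to HMOX1 completed the rule. Outside it, TALDO1, TKT and GPX4 were named after their values had been seen. GSTM3, ALAS1 and FTH1, which passed in alternative settings, and the NRF2 relatives NFE2L1 and NFE2L3 were also named outside it. GC content was that of each gene's longest GENCODE 29 transcript, known for 99.938% of tested genes. Depth limits low genes: a count of 1 is about 1 in 16569114 in the shallowest library, and intervals cover these libraries only.

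No replicate pair held identical values. Same-numbered libraries had correlations of their deviations from group means of -0.0469 to 0.141 over 18 pairs. Different-numbered libraries had -0.158 to 0.0555 over 36 pairs. These ranges do not settle whether the numbers pair libraries. The labels give no pairing, so the main fit has none and a replicate block is an alternative. The values of 1 pathway gene are not reported here.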

Additional observations from a re-analysis of the deposited data

How the results depend on the processing

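Over 20 alternatives (25 for CEP averaged over 4SU and the interaction), the count of members past the threshold was 0 in each for CEP against DMSO, CEP+4SU against 4SU and the interaction, as was that of pathway genes for the last 2. HMOX1 with CEP+4SU against DMSO, the comparison by which it was chosen, so that this is a description and no support, passed in 19 of 20 alternatives, at -0.78 to -0.52, and the count of members was 0 with limma on log2(FPKM + 1) without a low-value filter, over 35634 genes. For 4SU against DMSO the members past the threshold were 1, HMOX1, with DESeq2, without a low-count filter, with the replicate block plus removal of the GC trend, without CEP replicate 2 and CEP+4SU replicate 2, and with only the 6 libraries compared, where 1 pathway gene, TALDO1, passed too. For CEP averaged over 4SU, members were 1 with DESeq2, without a filter and with the replicate block, and 0 to 1 leaving out 1 library, being 1 without CEP replicate 1 or CEP+4SU replicate 1. The count of pathway genes past the threshold depended on the setting, and so did the count over all genes, given below. With CEP against DMSO they were 1, FTH1, without a filter or with the replicate block, and 0 to 2 leaving out 1 library, being 2 without CEP replicate 1. With CEP+4SU against DMSO they were 8 with DESeq2 or without a filter, 12 with the replicate block, 3 with upper-quartile factors, a filter of 10 counts in every library, robust dispersion or only 6 libraries, 2 with library size alone or with the GC trend removed with or without the block, and 0 with each of 3 limma settings. Leaving out 1 library gave 0 to 7, being 0 without any DMSO replicate or CEP+4SU replicate 2 and 7 without CEP+4SU replicate 1. For CEP averaged over 4SU they were 2 with DESeq2, 3 without a filter, 8 with the replicate block and 1 with the GC trend removed with or without the block, and 0 to 7 leaving out 1 library, being 7 without CEP replicate 1 and 3 without CEP+4SU replicate 1. The HMOX1 interaction ranged from -0.18 to 0.015 leaving out 1 library, positive without 4SU replicate 1. The cause of these shifts was not tested. Replicate numbers are not known to pair libraries. A correlation over 0.1 was found in 1 of 18 same-number pairs and in 0 of 36 others, and 7 of 12 libraries correlated best with their own number. With the replicate block all genes past the threshold rose from 290 to 1667 for CEP+4SU against DMSO and from 10 to 780 for CEP against DMSO, and HMOX1 was at -0.69 and -0.19. Without the filter these were 1234 and 662 of 35634 genes, with DESeq2 1164 of 10945 and 253 of 9610. Without CEP+4SU replicate 1 the former was 812 of 18356, and without a DMSO replicate 14 to 21. Without CEP replicate 1 the latter was 1214 of 18377. For CEP averaged over 4SU, all genes past the threshold were 49 of 17729, and 2269 with the replicate block. They were 1499 of 9610 with DESeq2 and 1448 of 35634 without the filter. Without CEP replicate 1 they were 2171 of 18377, and without CEP+4SU replicate 1 1131 of 18356. At 5 to 39 counts, OSGIN1 was limited by depth.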

Other observations

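Ratios within a library do not depend on its total. The CPM of HMOX1 divided by that of GCLM was 1.06 to 1.29 in the DMSO libraries, 0.803 to 1.01 with CEP, 0.723 to 1.10 with 4SU and 0.548 to 0.769 with CEP+4SU. The CPM of GCLM divided by that of GCLC, its partner subunit, was 1.23 to 1.57 in DMSO, 1.40 to 1.51 with CEP, 1.21 to 1.38 with 4SU and 1.31 to 1.47 with CEP+4SU, so that this pair overlapped between DMSO and each treated group. The lower HMOX1 to GCLM ratio with CEP+4SU does not say which of the pair changed. Their transcripts differ in base composition, with 58.07% G and C in HMOX1 and 37.29% in GCLM, and after removal of the GC trend their log2 fold changes with CEP against DMSO were -0.01 and -0.01.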
